A study of Rattus norvegicus with 6 samples.

Results

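The 226 transcripts described here are the long non-coding RNAs (lncRNAs) that carry no gene name and were clearly detected in cultured rat oligodendrocytes. They were chosen from 20422 entries of the deposited gene table as those typed lncRNA, listed under their Ensembl identifier alone, and with a mean of at least 3 FPKM over the 6 libraries; ENSRNOG00000065247 met these conditions and was left out by the rule. FPKM is the number of fragments of a transcript scaled by its length and by the depth of the library. The table held 1569 lncRNA entries, of which 1280 had no name, and 1053 of those unnamed entries lay under 3 FPKM. The mean over both treatments chose the members, so a transcript near the limit could enter through the group in which it was higher. In the cholesterol mean 219 members reached 3 FPKM, in the PBS mean 223 and in both 216. Under 3 FPKM in the PBS mean were ENSRNOG00000064309, ENSRNOG00000067254 and ENSRNOG00000068332, which are listed below among the largest rises. Among the largest falls, ENSRNOG00000063799 and ENSRNOG00000067663 were under 3 FPKM in the cholesterol mean. These members entered only through the group in which they were higher.

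The libraries came from oligodendrocytes, the myelin-forming glia of the central nervous system, grown as primary cultures from rats at postnatal day 1. In 3 libraries the cells had received 0.01 mM water-soluble cholesterol and in the other 3 phosphate-buffered saline (PBS), each for 12 h. No genetic change, sex or animal number is given in the labels, which also do not say whether the 3 samples of a group were separate cultures. The p-values below therefore reflect the spread among these libraries alone, which may be technical. Water-soluble cholesterol usually comes bound to a cyclodextrin, and cells given that carrier alone were not part of the comparison.

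A long non-coding RNA is a transcript, usually made by RNA polymerase II, that is not read into a known protein. Some act as RNA molecules in the nucleus, some mark active enhancers or promoters, and many have no known function. Where such a transcript lies beside a coding gene matters for reading its level, because fragments of a poly(A) library do not by themselves tell a separate transcript from a longer 3′ end of the gene.

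Each library held between 63769532 and 70878378 counts, and each member had between 78 and 28321 counts in every library. All 11 oligodendrocyte markers were detected, and their summed level was 7827 to 8904 FPKM in the cholesterol libraries and 5154 to 5261 FPKM in the PBS libraries. Markers of other cells were also present and moved with the treatment. Of 8 astrocyte markers, 7 were higher with cholesterol and 0 lower, with sums of 631 to 691 FPKM in cholesterol libraries and 347 to 355 FPKM in PBS libraries. Of 10 microglia markers, 0 were higher and 8 lower, with sums of 89.9 to 119 FPKM in cholesterol libraries and 145 to 157 FPKM in PBS libraries. Of 5 markers of oligodendrocyte precursors, 1 was higher and 3 lower, with sums of 415 to 486 FPKM in cholesterol libraries and 546 to 562 FPKM in PBS libraries. Of 8 neuron markers 1 was lower, with sums of 180 to 189 FPKM in cholesterol libraries and 179 to 187 FPKM in PBS libraries, and of the 6 tested fibroblast and vascular markers 2 were higher and 2 lower. No detected marker was at 0. In such bulk samples, fewer cells of a type and less RNA per cell cannot be told apart, and the part of cell composition in the results below was not tested.

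The members spanned a wide range of levels. Their mean level ran from 3.05 to 253 FPKM with a median of 8.12 FPKM; 93 members reached 10 FPKM and 20 reached 30 FPKM. The replicates were close, with a median coefficient of variation of 0.066 in the cholesterol libraries and 0.049 in the PBS libraries. They lay on 20 chromosomes, 30 of them on chromosome 1, and divided into 109 on the plus strand and 117 on the minus strand. Annotation was thin: 217 had 1 listed transcript, 13 carried any Gene Ontology term, and 0 had an Entrez identifier or a description.

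Their models were short and mostly unspliced. The median genomic span was 2174.5 bases, between 1002 and 32621 bases. The transcript length implied by the ratio of deposited count to deposited FPKM was at least 0.99 of that span in 155 members (68.6%), as for a model made of 1 exon. The same held for 3.13% of the protein coding entries at 3 FPKM or more, for 27.3% of the 55 named lncRNAs at that level and for 16% of the unnamed lncRNAs under it.

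Most members lay just past the 3′ end of a named gene. Measured to the nearest named entry, 100 lay downstream on the same strand, and 74 lay tail to tail, that is beyond the gene's 3′ end but on the opposite strand. A further 20 lay upstream on the same strand, 11 head to head, 18 overlapped a named entry on the opposite strand and 3 on the same strand. The 3′ side thus held 174 members (77%), against 37.8% of the protein coding entries at 3 FPKM or more measured in the same way. Within 5 kb of the gene's end lay 161 members (71.2%), against 18.6% of those coding entries, and the median gap on the 3′ side was 978 bases. Unnamed lncRNAs under 3 FPKM had 34.8% on the 3′ side and 22.4% there within 5 kb. Named lncRNAs at 3 FPKM or more had 40% on the 3′ side and 29.1% there within 5 kb. The high shares thus held for the members, chosen by their level, and not for unnamed lncRNAs in general. The positions themselves come from the annotation and not from the treatment.

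**Figure D1:**
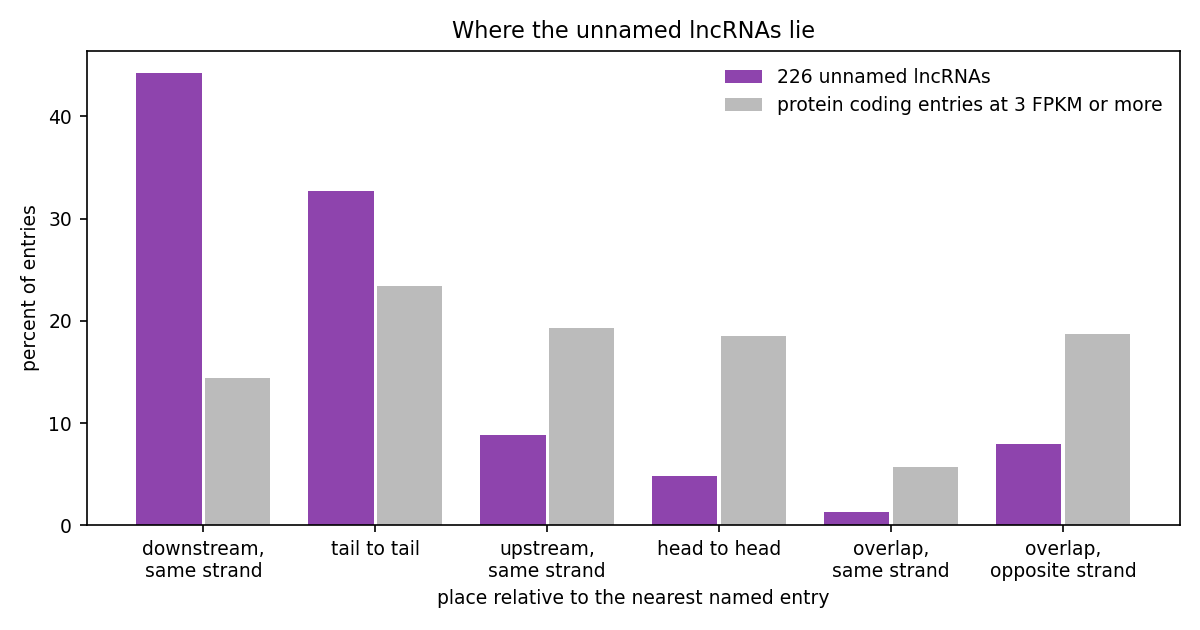
Percent of entries (vertical axis) in each place relative to the nearest named entry, for the 226 unnamed lncRNAs (left bar of each pair) and for protein coding entries at 3 FPKM or more (right bar). Downstream on the same strand holds 44.2% of the lncRNAs and 14.4% of the coding entries.

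With cholesterol more of these transcripts were lower than higher, and the changes were small. With edgeR's quasi-likelihood test, adjusted over all 16182 tested entries, 30 members (13.3%) were higher at an adjusted p under 0.05, against 20.5% of all tested entries. A further 65 members (28.8%) were lower, against 19.7% of all tested entries, and 131 were not called. Called in either direction were 42% of the members and 40.3% of all tested entries. Protein coding entries at 3 FPKM or more, which match the members in the limit on level, had 51% called, 24.7% higher and 26.3% lower. The median log2 fold change of the members, cholesterol over PBS, was -0.12, against 0.01 over all tested entries; 162 members had a negative and 64 a positive value. The unnamed lncRNAs under 3 FPKM had the same median, -0.12 over 559 tested, and the 55 named lncRNAs had 0.10. Tested entries other than members with implied lengths between the members' quartiles, 1418 to 2805 bases, had a median of 0.06, with 25.1% higher and 12.7% lower.

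The groups did not overlap in FPKM for 53.5% of the members, 36 above and 85 below, against 52.4% of all tested entries. The median size of change was 0.20 on the log2 scale. Only 5 members rose by 1.5-fold or more past the test, against 6.11% of all tested entries, and 2 fell by as much, against 3.83%. Members with more fragments were called more often: 25.9% of the 58 members under 5 FPKM, 33.3% of 75 up to 9.81 FPKM, 57.5% of 73 up to 29.9 FPKM and 65% of the 20 at the top. The median log2 fold change in those bins was -0.17, -0.08, -0.14 and -0.13.

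**Figure D2:**
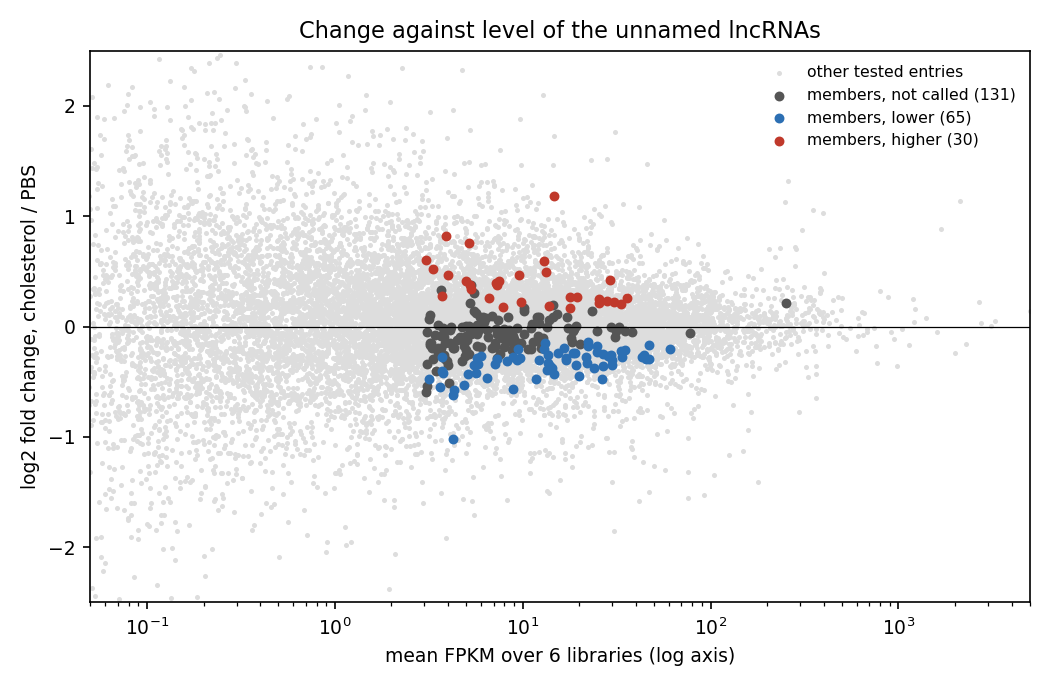
Log2 fold change, cholesterol over PBS (vertical axis), against mean FPKM over 6 libraries (horizontal log axis); each point is 1 tested entry, grey for entries that are not members, red for 30 members called higher, blue for 65 called lower and dark grey for 131 not called. Most called members sit within 1 log2 unit of 0; 273 tested entries lie outside the axes.

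The strongest rise lay behind a glutamate transporter gene. ENSRNOG00000062419 (chr3:89129151-89135458, plus strand) starts 2652 bases past the end of Slc1a2, which encodes the main glutamate transporter of astrocytes. It had 21.6, 19.4 and 20.1 FPKM in the cholesterol libraries, against 8.67, 8.55 and 9.44 FPKM in the PBS libraries. Its log2 fold change was 1.19 (adjusted p = 3.68e-07, SE 0.05). Slc1a2 itself had 6.37 ± 0.60 FPKM with cholesterol and 2.86 ± 0.17 FPKM with PBS (SD, n = 3), a log2 fold change of 1.14, and is 1 of the 7 astrocyte markers that were higher. The level of the lncRNA per length was thus above that of the gene in front of it in both groups.

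The other large rises were found beside genes of varied roles. ENSRNOG00000071035, 890 bases past Tgfbr3, the betaglycan co-receptor of transforming growth factor beta, had 7.59, 5.47 and 6.63 FPKM with cholesterol and 3.38, 3.99 and 4.15 FPKM with PBS, a log2 fold change of 0.76 (adjusted p = 0.00186, SE 0.14). ENSRNOG00000066402, 654 bases past the mitochondrial carrier gene Sfxn5, had 15.4, 15.9 and 15.8 FPKM with cholesterol and 10.2, 9.89 and 10.96 FPKM with PBS, a log2 fold change of 0.59. ENSRNOG00000065676, 555 bases past Fbxo32, a ubiquitin ligase subunit known from muscle wasting, had 15.3, 16.7 and 14.9 FPKM with cholesterol and 10.2, 11.5 and 11.2 FPKM with PBS, a log2 fold change of 0.50. In these 3 cases every cholesterol library was above every PBS library, which was a condition for being listed among the largest rises. Their nearest genes were also higher, with log2 fold changes of 0.52 for Tgfbr3, 0.54 for Sfxn5 and 0.40 for Fbxo32. ENSRNOG00000068332, 1040 bases past Gfod1, had 4.33, 3.86 and 3.60 FPKM with cholesterol and 3.05, 2.46 and 2.63 FPKM with PBS, a log2 fold change of 0.52 (adjusted p = 0.00303), while Gfod1 at 0.38 did not pass (adjusted p = 0.119).

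The other 3 of the 8 largest rises did not lie just past the end of a named gene. ENSRNOG00000064309 (chr20:54422107-54426572, plus strand) is 514894 bases from its nearest named entry, Sim1, a neuronal transcription factor listed at 0 FPKM in every cholesterol library. The lncRNA had 5.67, 4.90 and 4.45 FPKM with cholesterol and 2.81, 2.93 and 2.70 FPKM with PBS, a log2 fold change of 0.82 (adjusted p = 0.000219, SE 0.11). ENSRNOG00000067254 (chr17:13570612-13575873, minus strand) holds a small nucleolar RNA entry and had 3.91, 3.78 and 3.48 FPKM with cholesterol and 2.60, 2.22 and 2.47 FPKM with PBS, a log2 fold change of 0.61 (adjusted p = 0.000522). Sema4d, a semaphorin that guides cell processes, lies 33473 bases from it and was also higher, at 0.74, whereas Secisbp2, which begins 1088 bases away on the same strand, had a log2 fold change of -0.04 (adjusted p = 0.69). ENSRNOG00000065398, 363254 bases from Tut7, had 4.72, 5.02 and 4.23 FPKM with cholesterol and 3.22, 3.58 and 3.21 FPKM with PBS, a log2 fold change of 0.47 (adjusted p = 0.00151). All 3 had their groups apart, as the choice of the listed rises required.

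The strongest fall was not shared by the named genes closest to it. ENSRNOG00000063799 (chr18:23543616-23545513, minus strand) had 2.88, 2.45 and 3.19 FPKM in the cholesterol libraries, against 5.63, 5.60 and 5.85 FPKM in the PBS libraries. Its log2 fold change was -1.02 (adjusted p = 6.63e-05, SE 0.11), the lowest of the 226. Every cholesterol library was below every PBS library, as the choice of the listed falls required. The nearest named gene, Sft2d3, begins 4310 bases away and had 15.3 ± 0.65 FPKM with cholesterol and 14.7 ± 0.32 FPKM with PBS (SD, n = 3), a log2 fold change of 0.05 (adjusted p = 0.498). On the other side Lims2 had -0.01 (adjusted p = 0.964), and Gpr17, a receptor of oligodendrocytes that have not yet matured, at a distance of 31728 bases, was lower by -0.36 on the log2 scale (adjusted p = 0.000307). Myo7b, at a distance of 42793 bases, had a log2 fold change of 0.23 (adjusted p = 0.139). Gpr17 is 1 of the 5 precursor markers, of which Cspg4 was higher, at 0.26. A link between this lncRNA and Gpr17 was not tested.

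The next falls again lay mostly beside genes that were lower. ENSRNOG00000063128, tail to tail with the zinc exporter gene Slc30a1 at 521 bases, had 7.19, 7.79 and 6.59 FPKM with cholesterol and 10.7, 10.3 and 10.8 FPKM with PBS. Its log2 fold change was -0.57 (adjusted p = 0.000251, SE 0.08) and that of Slc30a1 was -0.55. ENSRNOG00000067663, 1526 bases past Lcor, a nuclear receptor corepressor, had 2.59, 3.11 and 3.14 FPKM with cholesterol and 4.25, 3.96 and 4.62 FPKM with PBS, a log2 fold change of -0.55 beside -0.56 for Lcor. ENSRNOG00000068569, 1266 bases past Elfn2, had 22.8, 19.8 and 24.3 FPKM with cholesterol and 30.9, 30.6 and 30.4 FPKM with PBS, a log2 fold change of -0.47 beside -0.56 for Elfn2. In each of these pairs the lncRNA and the gene moved by nearly the same amount.

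ENSRNOG00000069533, tail to tail with the helicase gene Helz, had 4.10, 3.66 and 4.24 FPKM with cholesterol and 5.85, 5.32 and 5.98 FPKM with PBS, a log2 fold change of -0.53 beside -0.37 for Helz. ENSRNOG00000064613, tail to tail with Sbno1, had 9.25, 9.42 and 11.2 FPKM with cholesterol and 14.5, 12.7 and 13.8 FPKM with PBS, a log2 fold change of -0.47 beside -0.32 for Sbno1. ENSRNOG00000067785, 21983 bases upstream of the integrin gene Itga9, had 3.51, 3.52 and 3.44 FPKM with cholesterol and 5.13, 5.07 and 5.30 FPKM with PBS, a log2 fold change of -0.58 (adjusted p = 2.25e-05, SE 0.05). ENSRNOG00000066736 had 3.47, 3.44 and 3.14 FPKM with cholesterol and 5.76, 4.42 and 5.17 FPKM with PBS, a log2 fold change of -0.62 (adjusted p = 0.00252, SE 0.12). It overlaps an entry near 0 FPKM, and the next expressed gene, Klhl5, 20902 bases away, was lower by -0.53 on the log2 scale. All 4 lncRNAs had their groups apart, which the choice of the listed falls again required.

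**Figure D3:**
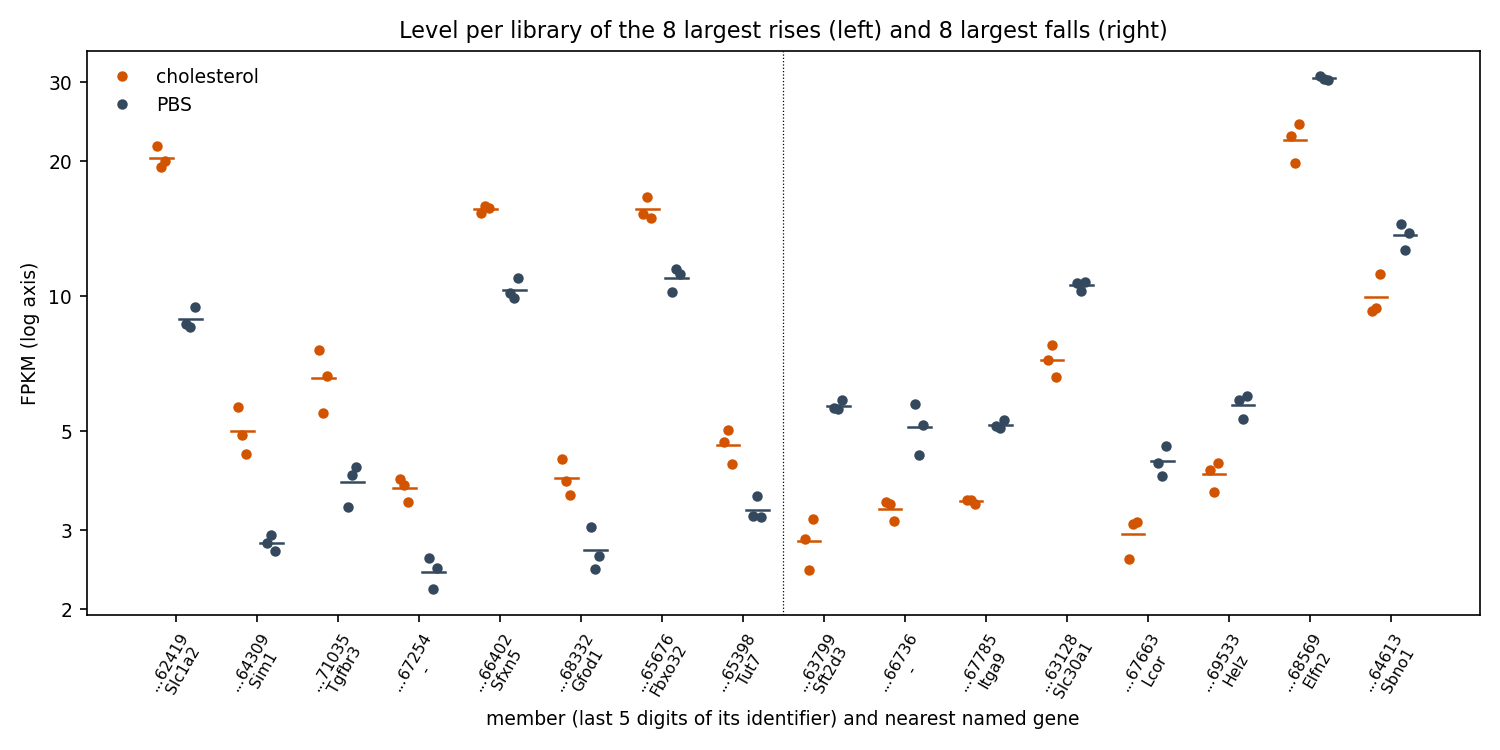
FPKM in each library (vertical log axis) for the 8 members with the largest rises and the 8 with the largest falls among those past the test with groups apart; orange points are the 3 cholesterol libraries, dark points the 3 PBS libraries and short lines their means. In all 16 the points of the groups do not overlap, as the choice required. A dash stands for a nearest entry with no gene symbol proper.

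The 6 members with the highest levels had changes of at most 0.29 on the log2 scale. ENSRNOG00000068880 (chr5:111671879-111673171, minus strand), at the top with a mean of 253 FPKM, had 270, 315 and 233 FPKM with cholesterol and 208, 251 and 242 FPKM with PBS, which overlap, and its log2 fold change of 0.21 did not pass (adjusted p = 0.112). It passed without cholesterol replicate 3, at 0.32 (adjusted p = 0.0133). ENSRNOG00000065188, 371 bases past Scarb2, which encodes a lysosomal membrane protein, had 75.02, 75.3 and 79.7 FPKM with cholesterol and 79.4, 78.8 and 79.2 FPKM with PBS, a log2 fold change of -0.06 (adjusted p = 0.223). It was 0.01 with quantile normalization, but passed as lower with the length correction, at -0.13 (adjusted p = 0.0137), and with library median scaling, at -0.11 (adjusted p = 0.0321). ENSRNOG00000063496, 3242 bases upstream of Dsn1, a kinetochore gene, had 58.1, 50.2 and 62.6 FPKM with cholesterol and 67.5, 63.3 and 64.9 FPKM with PBS, a log2 fold change of -0.21 (adjusted p = 0.0326). That call was lost in 7 alternatives, among them leaving out PBS replicate 1, where the adjusted p was 0.124.

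The next 3 in level were lower and stood behind genes that were lower. ENSRNOG00000070935, 666 bases past Eif4ebp2, which encodes a repressor of translation, had 42.1, 41.3 and 43.3 FPKM with cholesterol and 50.8, 51.4 and 51.7 FPKM with PBS, a log2 fold change of -0.29 (adjusted p = 0.000118, SE 0.04). ENSRNOG00000065409, 1493 bases past the ubiquitin ligase gene Rmnd5a, had 43.0, 43.6 and 46.4 FPKM with cholesterol and 50.2, 48.9 and 49.3 FPKM with PBS, a log2 fold change of -0.17. ENSRNOG00000062694, 264 bases past Chst11, a chondroitin sulfotransferase gene, had 39.1, 37.6 and 45.4 FPKM with cholesterol and 47.8, 50.2 and 50.3 FPKM with PBS, a log2 fold change of -0.29. The log2 fold changes of the genes were -0.30 for Eif4ebp2, -0.29 for Rmnd5a and -0.36 for Chst11.

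The lncRNAs on the 3′ side of a gene changed with that gene. Among the 169 such pairs with both tested, 140 had the same sign of log2 fold change. Of the 53 lncRNAs there that were lower, 44 stood beside a gene that was lower, and of the 18 that were higher, 13 stood beside a gene that was higher. Over all 169 pairs, the gene was lower in 78 and higher in 18. Most changes of lncRNAs and genes were negative, so unlinked pairs would also share their sign in part. In all 57 pairs in which both passed the test the direction was the same. Over 14 alternative fits the number of such pairs was 42 to 67, of which 0 to 3 had opposite directions, the 3 when cholesterol replicate 2 was left out. Elsewhere, in the other arrangements, 10 pairs had both members called, 5 in the same and 5 in opposite directions. Protein coding entries on the 3′ side within 5 kb of another named gene gave 226 pairs in the same and 159 in opposite directions.

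Across pairs on the 3′ side, Spearman's rho between the log2 fold changes of lncRNA and gene was 0.70 (n = 169), and 0.73 within 5 kb (n = 158). It was 0.30 in the other arrangements (n = 46) and 0.12 for coding entries on the 3′ side within 5 kb (n = 1602). These pairs share the same 6 libraries and are not independent replicates, and the coefficients are given as a description. The relation held for each strand within 5 kb, with a rho of 0.75 for the 91 pairs on the same strand and 0.68 for the 67 tail to tail, where a read from the gene itself would lie on the other strand. No source used here says whether the counting used the strand. The median level of a 3′ side lncRNA was 1.17 times that of its gene among the 163 genes at 1 FPKM or more, and 96 of them were above it.

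**Figure D4:**
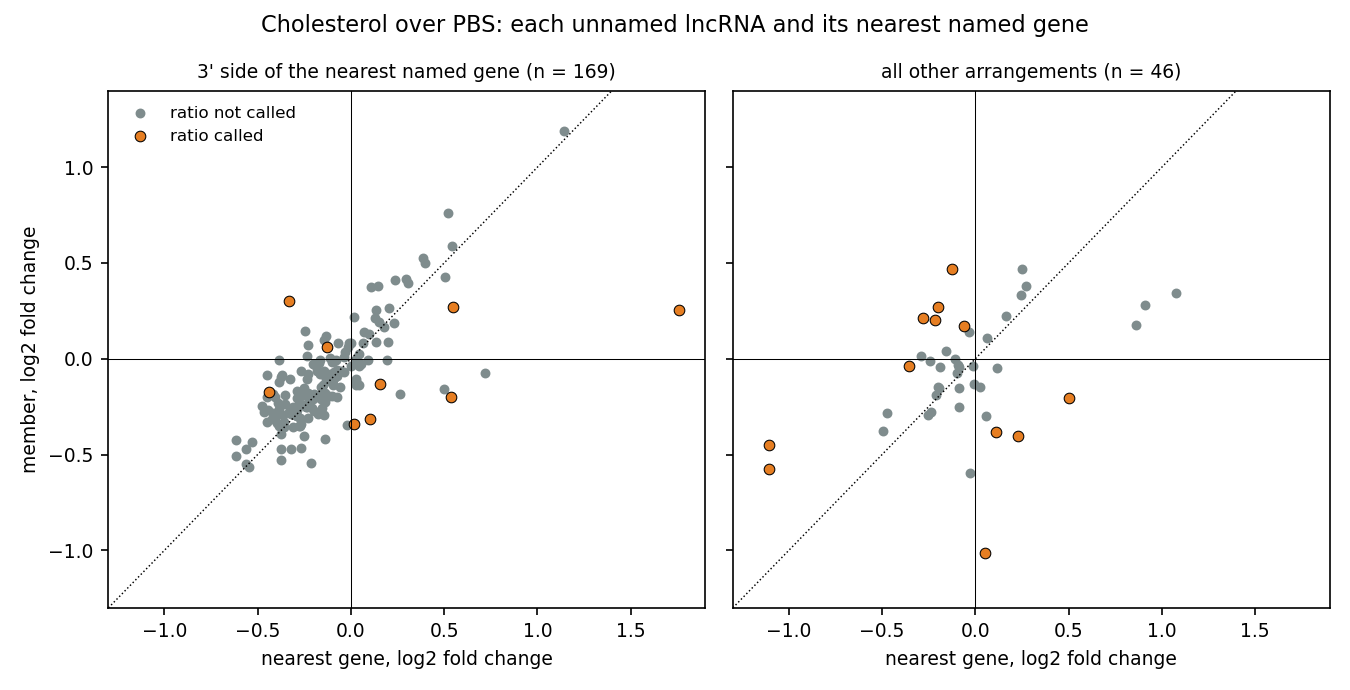
Log2 fold change, cholesterol over PBS, of each lncRNA (vertical axis) against that of its nearest named gene (horizontal axis), on the left for 169 lncRNAs on the 3′ side and on the right for 46 in other arrangements; the dotted line marks equal change and orange points are pairs whose ratio passed its test. The left cloud follows the line, and 2 pairs lie outside the axes. Their neighbours are AABR07067267.1, at a mean of 0.14 FPKM, and AABR07071891.2, at a mean of 3.88 FPKM. AABR07071891.2 had 4.90, 0 and 0 FPKM with cholesterol and 6.12, 5.94 and 6.35 FPKM with PBS.

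The nearest named genes were also lower more often than higher. The 226 members had 213 distinct nearest entries, of which 203 were tested: 24 were higher (11.8%, against 20.5% of all tested entries), 81 were lower (39.9%, against 19.7%), and the median log2 fold change was -0.14. Some of these genes have well-known roles and are named here after their values were seen. ENSRNOG00000066813, 1659 bases past Gsk3b, the kinase that marks beta-catenin for decay, had 39.0, 37.8 and 41.2 FPKM with cholesterol and 48.4, 46.6 and 47.0 FPKM with PBS, a log2 fold change of -0.28 (adjusted p = 0.000312) beside -0.33 for Gsk3b. ENSRNOG00000068800, past the insulin-like growth factor receptor gene Igf1r, had 3.07, 3.35 and 3.28 FPKM with cholesterol and 4.13, 4.21 and 4.57 FPKM with PBS, a log2 fold change of -0.42 beside -0.62 for Igf1r. In both pairs the lncRNA and the gene were lower.

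ENSRNOG00000069059, tail to tail with Foxo3, had 15.7, 14.9 and 15.0 FPKM with cholesterol and 19.1, 18.0 and 18.6 FPKM with PBS, a log2 fold change of -0.30 beside -0.29 for Foxo3, a forkhead transcription factor gene. ENSRNOG00000070241, 1377 bases past the related Foxo1, had 6.60, 5.36 and 5.13 FPKM with cholesterol and 4.63, 3.86 and 4.25 FPKM with PBS, a log2 fold change of 0.41 (adjusted p = 0.0243) beside 0.23 for Foxo1. That call was lost in 5 alternatives, among them leaving out cholesterol replicate 1 (adjusted p = 0.0986), PBS replicate 2 or PBS replicate 3. ENSRNOG00000062796, past Agap1, a regulator of Arf proteins, had 35.2, 30.8 and 35.2 FPKM with cholesterol and 25.7, 23.1 and 25.9 FPKM with PBS, a log2 fold change of 0.43 beside 0.50 for Agap1. ENSRNOG00000065096, past Mlec, an endoplasmic reticulum lectin gene, had 26.4, 26.2 and 26.6 FPKM with cholesterol and 32.9, 33.6 and 33.7 FPKM with PBS, a log2 fold change of -0.35 (adjusted p = 3.13e-05, SE 0.03) beside -0.38 for Mlec.

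A named lncRNA had a member behind it. Tug1, a widely expressed lncRNA that the table types as protein coding, had 12.4 ± 0.91 FPKM with cholesterol and 16.4 ± 0.52 FPKM with PBS (SD, n = 3), a log2 fold change of -0.42 (adjusted p = 0.000724). ENSRNOG00000068460, 1280 bases past it, had 14.5, 14.9 and 16.6 FPKM with cholesterol and 18.7, 18.3 and 18.5 FPKM with PBS, a log2 fold change of -0.28 (adjusted p = 0.00427). A second entry named Tug1 was at 0.025 FPKM with cholesterol and 0.056 FPKM with PBS and was not tested. Of 52 lncRNA names looked for in the table, 2 were present, and the other, H19, an imprinted lncRNA, was higher by 0.50. The table's type labels therefore do not always match the usual class of a gene, and the label lncRNA of the members was taken as given.

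For most members the ratio to the nearest gene did not pass a test of its own. With limma on the log2 ratio in each library, fitted over all 13941 pairs, 21 of 215 member pairs were called (9.77%), against 28.5% of all pairs; 11 ratios were higher and 10 lower. Of the 158 pairs on the 3′ side within 5 kb, 8 were called, and of the other 57, 13. A ratio that did not pass does not show equal change. Of the 21 ratios, 12 were called in all 7 alternatives, and the count of higher ratios was 7 without PBS replicate 1, 5 without PBS replicate 2, 6 without PBS replicate 3 and 7 without cholesterol replicate 1.

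The widest split lay behind a septin gene. Septin4, a septin of the cell cortex and of myelin, had 47.8 ± 4.2 FPKM with cholesterol and 14.02 ± 0.27 FPKM with PBS (SD, n = 3), a log2 fold change of 1.76. ENSRNOG00000066333 (chr10:72390923-72392317, plus strand), 154 bases past it, had 6.72, 7.67 and 7.22 FPKM with cholesterol and 5.96, 5.94 and 6.04 FPKM with PBS, a log2 fold change of 0.26 (adjusted p = 0.0427). Its ratio to Septin4 was lower by -1.50 on the log2 scale (adjusted p = 0.000292, SE 0.10) and stayed called in all 7 alternatives. The rise of the lncRNA itself was not called in 11 alternatives, with adjusted p up to 0.154. ENSRNOG00000065279, 262 bases past the adhesion molecule gene Mcam, had 9.68, 10.1 and 9.997 FPKM with cholesterol and 10.5, 11.6 and 11.8 FPKM with PBS (log2 fold change -0.20, adjusted p = 0.0628), beside 0.54 for Mcam, and the ratio was lower by -0.73. This lncRNA passed as lower under 4 alternatives, with adjusted p of 0.0129 with the length correction, 0.0236 with library median scaling, 0.0233 with quantile normalization and 0.0379 with limma on FPKM.

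Opposite moves that both passed were seen in 5 pairs with a called ratio. ENSRNOG00000070594, upstream of Irak1, a kinase of Toll-like receptor signalling, had 12.8, 12.7 and 12.2 FPKM with cholesterol and 16.8, 15.6 and 16.2 FPKM with PBS, a log2 fold change of -0.38 beside 0.11 for Irak1. ENSRNOG00000066635, 375 bases upstream of the splicing gene Scaf11, had 20.02, 19.2 and 19.7 FPKM with cholesterol and 16.0, 17.0 and 15.5 FPKM with PBS, a log2 fold change of 0.27 beside -0.20 for Scaf11. ENSRNOG00000065587, head to head with Rcc1, had -0.40 beside 0.23 for Rcc1, and the lncRNAs nearest Dsn1 and Tut7, described above, made up the 5. None of these 5 lies on the 3′ side of its gene. On that side the lncRNAs past Mcam, Lman2 and Kdm5c, among others, had the opposite sign to their genes. In none of these pairs did both the lncRNA and the gene pass. The log2 changes of the 5 ratios were -0.49 for Irak1, 0.47 for Scaf11, -0.63 for Rcc1, -0.72 for Dsn1 and 0.60 for Tut7.

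Among the other called ratios, the lncRNA and the gene often moved the same way by unequal amounts. ENSRNOG00000067873, 608 bases past Gpd1, a glycerol phosphate dehydrogenase gene, had 20.6, 22.0 and 20.98 FPKM with cholesterol and 17.5, 17.3 and 17.6 FPKM with PBS, a log2 fold change of 0.27 beside 0.55 for Gpd1. ENSRNOG00000063720, past Sox11, a transcription factor gene of immature neural cells, had 24.2, 23.4 and 22.5 FPKM with cholesterol and 26.04, 26.1 and 26.4 FPKM with PBS, a log2 fold change of -0.17 beside -0.44 for Sox11. ENSRNOG00000067959 (chr8:118259730-118264022, minus strand), 43358 bases from the start of Itga9, had 17.2, 16.5 and 16.9 FPKM with cholesterol and 22.5, 22.8 and 23.2 FPKM with PBS, a log2 fold change of -0.45 (adjusted p = 1.11e-05). Itga9 itself had 1.26 ± 0.20 FPKM with cholesterol and 2.70 ± 0.23 FPKM with PBS (SD, n = 3), a log2 fold change of -1.11, so this lncRNA was far above the gene in level and fell less.

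Lman2, which encodes a cargo receptor of the secretory pathway, had a log2 fold change of 0.10 (adjusted p = 0.0787), whereas ENSRNOG00000064475, 5 bases past it, had 7.12, 7.08 and 7.90 FPKM with cholesterol and 9.11, 9.29 and 8.83 FPKM with PBS, a log2 fold change of -0.31 (adjusted p = 0.00358). ENSRNOG00000068684, 17114 bases past Kdm5c, a histone demethylase gene, had a log2 fold change of 0.30 (adjusted p = 0.0704) beside -0.33 for Kdm5c. The ratios to Lyrm7, Cdan1, Cdc42se1, Neo1, Prdx2, Dnajc3, Sox11 and LOC108351137, and that of ENSRNOG00000067785 to Itga9, each lost their call in at least 2 of the 7 alternatives. Those 9 are the least certain of the 21.

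**Figure D5:**
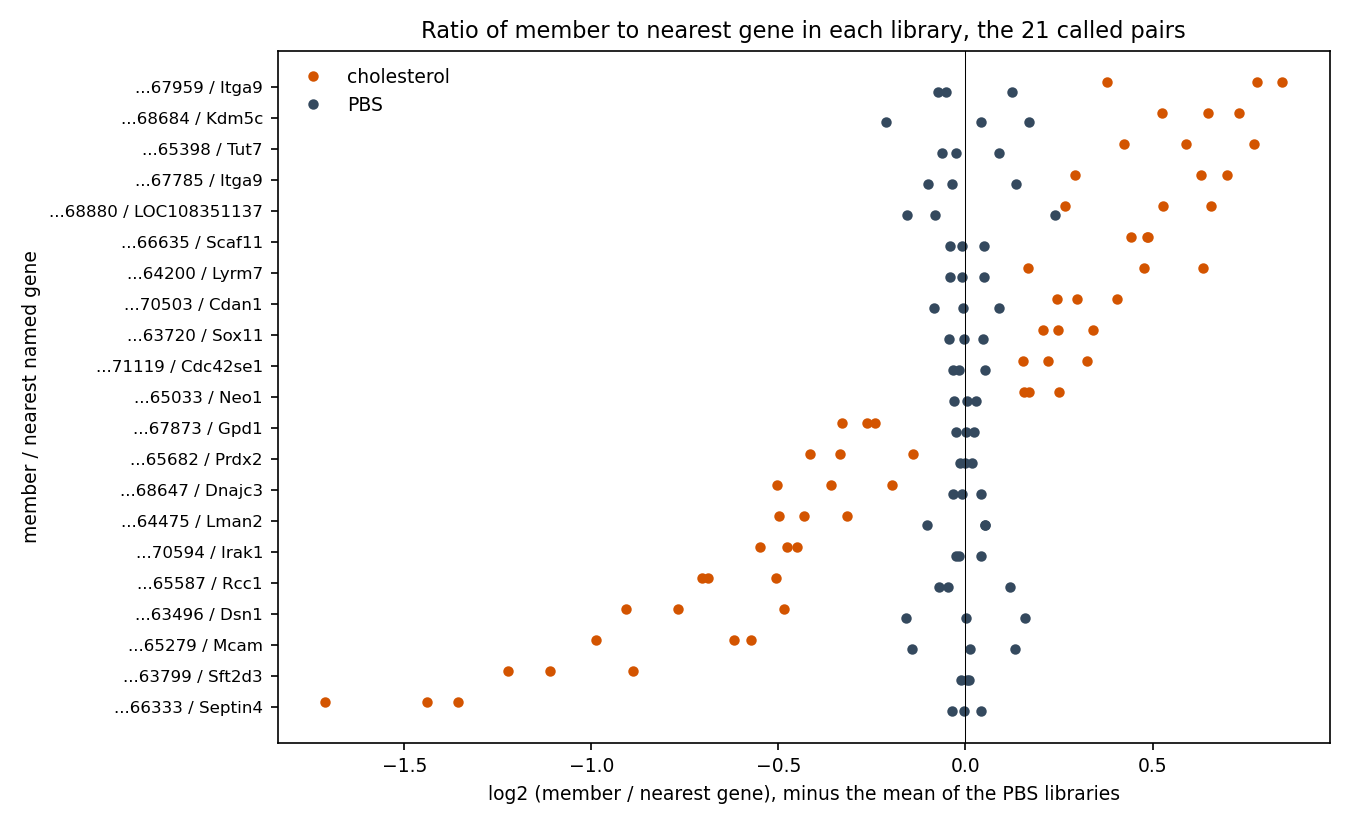
Log2 of the level of the lncRNA over that of its nearest named gene in each library, minus the mean of the PBS libraries (horizontal axis), for the 21 pairs with a called ratio (rows); orange points are cholesterol libraries, drawn above the dark PBS libraries of the same pair. The largest shift is that of the pair with Septin4, at -1.50.

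In head to head members the start faces the start of a gene on the other strand, at varied distances. Of the 11, 6 lay within 5 kb and were all described. ENSRNOG00000070404 (chr10:90144692-90156704, minus strand) starts 108 bases from Tlk2, a kinase gene of chromatin assembly. It had 3.12, 3.32 and 3.64 FPKM with cholesterol and 4.24, 3.99 and 3.89 FPKM with PBS, a log2 fold change of -0.28 (adjusted p = 0.0296) beside -0.24 for Tlk2, and leaving out any library except cholesterol replicate 3 ended that call, with adjusted p of 0.0507 to 0.114. ENSRNOG00000065587 (chr5:144544704-144546428, plus strand) starts 126 bases from Rcc1, which encodes the exchange factor for the GTPase Ran. It had 3.05, 3.46 and 3.11 FPKM with cholesterol and 3.97, 4.28 and 4.38 FPKM with PBS (adjusted p = 0.0116), and Rcc1 had 11.5 ± 0.20 FPKM with cholesterol and 9.73 ± 0.45 FPKM with PBS (SD, n = 3). The Tlk2 pair therefore had the same and the Rcc1 pair opposite directions.

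ENSRNOG00000064728, 272 bases from Kcnmb4, a potassium channel subunit gene, had 3.19, 5.00 and 4.12 FPKM with cholesterol and 3.36, 3.71 and 2.63 FPKM with PBS, and ENSRNOG00000066606, near Tmcc2, had 7.21, 6.42 and 4.53 FPKM with cholesterol and 4.70, 4.40 and 4.75 FPKM with PBS. In both the groups overlap, with an adjusted p of 0.184 for the lncRNA near Kcnmb4 and 0.0755 for that near Tmcc2. The lncRNA near Tmcc2 passed as higher with DESeq2, at 0.37 (adjusted p = 0.0438), and without cholesterol replicate 3, at 0.55 (adjusted p = 0.00329). ENSRNOG00000067495, near a small nucleolar RNA entry, and ENSRNOG00000068709, near Zfp82, had log2 fold changes of -0.16 and -0.15 (adjusted p = 0.0815 and 0.443).

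The start regions of Tlk2 and Rcc1 are shown because gene and lncRNA begin close together there on opposite strands, in 1 pair with the same and in 1 with opposite directions. The sequences are RefSeq's for the assembly GRCr8, from 250 bases before to 50 bases after the gene's start, read 5′ to 3′ on the gene's strand, with matches on either strand to the CCAAT box (letters CCAAT) and the GC box (letters GGGCGG) in capitals. They are not on the coordinates of the deposited table. For Tlk2 the length from the RefSeq start to the gene's far end, 91739 bases, is 10 bases short of the deposited span of 91749, whereas for Rcc1 it is 18395 bases against 18553, so whether the Rcc1 window reaches the start of its lncRNA was not tested.
Tlk2 (chr10:90656439-90656738, plus strand): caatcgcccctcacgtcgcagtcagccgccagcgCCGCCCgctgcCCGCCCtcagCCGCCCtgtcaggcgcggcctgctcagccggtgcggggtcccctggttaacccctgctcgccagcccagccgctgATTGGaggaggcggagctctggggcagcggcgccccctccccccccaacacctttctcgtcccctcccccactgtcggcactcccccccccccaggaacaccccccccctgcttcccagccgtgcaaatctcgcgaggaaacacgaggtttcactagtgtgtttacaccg
Rcc1 (chr5:149828382-149828681, minus strand): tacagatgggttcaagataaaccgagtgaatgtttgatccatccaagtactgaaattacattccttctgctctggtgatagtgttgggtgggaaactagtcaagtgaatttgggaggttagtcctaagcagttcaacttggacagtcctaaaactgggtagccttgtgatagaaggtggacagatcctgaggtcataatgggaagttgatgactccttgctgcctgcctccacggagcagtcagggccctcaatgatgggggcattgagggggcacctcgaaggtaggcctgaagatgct
The Tlk2 window held 1 CCAAT box, 3 GC boxes that do not overlap and 25 CG steps, a number that 16.6% of 33469 windows reach. The Rcc1 window held none of these motifs and 3 CG steps. Of all windows, 37.5% hold a CCAAT box and 33.1% a GC box on either strand. The E box (letters CACGTG), the TATA box (letters TATAAA) and the ETS core (letters CCGGAAG) occur in 6.42%, 14.2% and 8.75% of the windows and were found in neither of these.

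Overlaps limit how some levels can be read. In all, 54 members overlapped another entry, 52 of them on the opposite strand, and 21 overlapped a named entry. Of the 54, 7 were higher (13%) and 11 lower (20.4%). Of the 172 without any overlap, 23 were higher (13.4%) and 54 lower (31.4%). Over all tested entries, 20.5% were higher and 19.7% lower. With an entry of another strand, reads of the partners cannot be told apart unless the counting used the strand. The 10 overlaps between members, all on opposite strands, joined 19 members. ENSRNOG00000067802, at 9.41 FPKM, lies over 100% of its length opposite ENSRNOG00000068394, at 6.55 FPKM, with log2 fold changes of -0.20 (adjusted p = 0.0423) and -0.09 (adjusted p = 0.611).

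In 13 members the opposite strand held an entry typed pseudogene, 6 of them with names of processed pseudogenes, and the near-identical parent genes of these make the counts uncertain. ENSRNOG00000068880, the member with the highest level, is covered over 99.5% of its length by LOC108351137, a pseudogene entry at 58.1 FPKM that was lower by -0.28 on the log2 scale (adjusted p = 0.0408). ENSRNOG00000062786 lies opposite Hspa8-ps22 with 24.0, 26.1 and 24.1 FPKM with cholesterol and 25.5, 24.3 and 25.6 FPKM with PBS, a log2 fold change of -0.04 (adjusted p = 0.597). ENSRNOG00000071040, opposite Morf4l1-ps4, had 33.8, 35.2 and 30.8 FPKM with cholesterol and 28.8, 27.9 and 28.2 FPKM with PBS, a log2 fold change of 0.22 (adjusted p = 0.0103; 0.075 with the length correction). ENSRNOG00000063421, opposite Pkm-ps20, had 12.7, 12.8 and 11.8 FPKM with cholesterol and 14.7, 14.2 and 15.2 FPKM with PBS, a log2 fold change of -0.25 (adjusted p = 0.00696). Of the last 3, 1 was higher, 1 lower and 1 not called.

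ENSRNOG00000066162, opposite Hipk2, which encodes a nuclear kinase and is typed pseudogene in the table, had 19.8, 21.6 and 21.7 FPKM with cholesterol and 26.8, 26.9 and 27.4 FPKM with PBS, a log2 fold change of -0.38 beside -0.50 for Hipk2. ENSRNOG00000068480 overlaps an entry typed lncRNA that bears the name of Uqcr11, a subunit gene of respiratory complex III. That entry was listed at 0.024 FPKM, which need not be the level of the coding gene. ENSRNOG00000068480 had 29.5, 31.5 and 30.1 FPKM with cholesterol and 25.6, 24.1 and 27.2 FPKM with PBS. Its log2 fold change of 0.24 (adjusted p = 0.00641) did not pass with the length correction (adjusted p = 0.0502). ENSRNOG00000063619 had 38.5, 38.3 and 36.4 FPKM with cholesterol and 38.8, 39.4 and 38.1 FPKM with PBS, a log2 fold change of -0.05 (adjusted p = 0.321), which was 0.02 with quantile normalization and -0.11 with library median scaling, where it passed (adjusted p = 0.0474). ENSRNOG00000071119 lies opposite Cdc42se1, a gene of Cdc42 signalling whose entry is typed lncRNA. It had 19.8, 18.7 and 18.1 FPKM with cholesterol and 17.1, 16.0 and 16.8 FPKM with PBS, a log2 fold change of 0.17 (adjusted p = 0.0148). That call was lost when PBS replicate 2 (adjusted p = 0.0738) or the first cholesterol library (adjusted p = 0.0608) was left out, and with library median scaling (adjusted p = 0.0846).

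A few named entries were the nearest to several members. Of 12 such entries, 11 had 2 members and 1, Elavl1, had 3. In 3 of them, Gnaq, Helz and Itga9, every member was lower, those of Itga9 lying on its 5′ side; in 4 none was called and 5 were mixed. Behind Gnaq, which encodes a G protein alpha subunit, ENSRNOG00000066426 on the same strand had 22.7, 23.2 and 25.02 FPKM with cholesterol and 29.3, 30.5 and 30.2 FPKM with PBS, and ENSRNOG00000063937 on the opposite strand had 24.5, 23.1 and 25.9 FPKM with cholesterol and 29.9, 28.3 and 28.6 FPKM with PBS. Their log2 fold changes were -0.35 and -0.25, beside -0.31 for Gnaq, and they do not overlap each other. Behind Helz, ENSRNOG00000067362 on the same strand had 3.00, 2.06 and 2.94 FPKM with cholesterol and 3.47, 3.80 and 3.72 FPKM with PBS, a log2 fold change of -0.47 (adjusted p = 0.0268), whose call was lost without any 1 PBS replicate (adjusted p = 0.0518 to 0.0803) or without cholesterol replicate 2 (adjusted p = 0.0517). ENSRNOG00000067362 had a mean of 2.67 FPKM with cholesterol and 3.66 FPKM with PBS, and so entered only through the group in which it was higher. The 3 members behind Elavl1, an RNA-binding protein gene that was lower by -0.23, had log2 fold changes of -0.25, 0.01 and -0.11 and none was called.

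At the limit of 3 FPKM, the members just inside were ENSRNOG00000062985 at a mean of 3.05 FPKM, ENSRNOG00000067254 at 3.08 FPKM and ENSRNOG00000063115 at 3.08 FPKM. Just outside lay ENSRNOG00000064604 at 2.98 FPKM, ENSRNOG00000067976 at 2.97 FPKM and ENSRNOG00000062742 at 2.96 FPKM.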

How the data were processed

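Poly(A) RNA libraries from 6 samples were made with dUTP marking of the second strand and sequenced in pairs, per the labels' protocols. Tools listed in the submitters' processing notes, with no roles, are HISAT2 2.2.1, StringTie 2.1.6, cutadapt 1.9, edgeR and DESeq2, and the build listed is rn6. For the annotation and the strand setting of the counting, nothing is given in the sources used here. The authors deposited counts per gene and FPKM in the same table, per the file headers. Coordinates are the table's own; its build was not checked against a genome.

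Differences between groups came from edgeR 4.0.16 (R 4.3.3) on the counts: filterByExpr (16182 of 20422 entries kept), TMM, the quasi-likelihood test, two-sided, no replicate term, Benjamini-Hochberg adjustment over all entries tested. Deposited FPKM served as levels, with SD over 3 libraries. Ratios to the nearest named entry, added after the data were seen, were tested with limma 3.58.1 on log2 CPM differences (prior count 0.5). Implied length is count over FPKM, divided by 1.081, the most common ratio to span among well-counted entries with 1 listed transcript. No exon data were used, and a length of at least 0.99 of the span was read as that of a 1-exon model. Alternatives included DESeq2 1.42.0. Samples of equal number showed correlations of -0.01, -0.05 and -0.01 in their deviations and were not paired. Replicates differed by more than sampling noise (chi-square per degree of freedom 8.65 to 20.1).

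Members and lists were chosen with earlier results of these data known. Members named are the 6 highest in FPKM, the 8 largest rises and 8 largest falls past the test with groups apart, 3 on each side of the limit, up to 8 overlapping a named entry and up to 6 head to head within 5 kb; the others were chosen after their values were seen. Drawings used matplotlib 3.10.9.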

Additional observations from a re-analysis of the deposited data

How the results depend on the processing

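The counts of members called kept within 1.5 times their main values (30 higher, 65 lower) under every alternative that tests the whole set: no filter, other scalings, DESeq2, limma on log2(FPKM + 1), length correction (added after the data were seen) and the replicate block, which had 28 higher, 65 lower and a median of -0.12. Among the 93 members at 10 FPKM or more, 14 were higher and 41 lower, since fewer members were counted. The samples share only a number: no cholesterol sample correlated best with the PBS sample of its own number. Leaving out 1 library at a time gave 23 to 29 higher, 50 to 71 lower and medians of -0.14 to -0.10. The median of the members was -0.17 with library median scaling, -0.17 with length correction and -0.17 with quantile normalization in limma voom. Library median scaling moved the median of all genes to -0.05 and gave 23 members higher and 90 lower, and 14 of the nearest named genes higher in place of 24; length correction gave 22 and 95. The cause was not tested. Between 74 and 94 of the 95 calls were shared with each alternative, with 0 in the opposite direction. The count of ratios to the nearest gene called higher was 5 to 11 with 1 library left out, and of those called lower 8 to 14.

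Signs turned for members near 0 that were not called by edgeR with TMM or under the alternative that turned them: ENSRNOG00000063619 (0.016) and ENSRNOG00000065188 (0.011) with quantile normalization, and ENSRNOG00000070503, upstream of Cdan1, (0.0082) without cholesterol replicate 1. Of the 58 members under 5 FPKM, 25.9% were called, and the part of depth in this was not tested.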
